A study of Mus musculus with 31 samples.

Results

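Primary microglia from wild-type mice were stimulated with herring testis DNA (HT-DNA), a purified double-stranded DNA used as a surrogate for DNA that has leaked into the cytosol, and compared with wild-type microglia that received vehicle. The groups compared hold 6 of the 31 libraries in the whole series. They are 3 with HT-DNA at 1 µg/ml, collected 6 h after stimulation, and 3 with vehicle. All genes that passed a filter on low counts were included, which left 13675 of the 54532 Ensembl genes in the table. Both groups were Cgas+/+ cells, grown from the cortices of newborn pups as mixed glial cultures and separated as microglia after GM-CSF had been added to the mixed cultures, so they are cultured cells from young animals rather than microglia taken from brain. The study describes the samples of each group as biologically independent. The study names Lipofectamine for HT-DNA in its reporter cell lines, but how the DNA was delivered to the primary microglia and what the vehicle held are not given in the sources used here. Libraries of Cgas-/- microglia with vehicle or HT-DNA at the same dose and time are compared only to show where the HT-DNA response differed. So are those of wild-type microglia with tau fibrils for 6 h. All 18 microglia libraries, tau-treated Cgas-/- libraries included, also entered the low-count filter and the shared estimate of spread behind the p-values.

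Double-stranded DNA in the cytosol is bound by cGAS, which makes the cyclic dinucleotide cGAMP. cGAMP binds STING, and STING recruits the kinase TBK1, which activates the transcription factor IRF3 and, to a lesser degree, NF-κB. IRF3 and NF-κB turn on interferon-β, and secreted interferon then acts through its receptor and a transcription factor complex that contains IRF9 on a large set of interferon-stimulated genes that carry an interferon-stimulated response element (ISRE) near their start.

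The promoters of 6 genes that rose, an interferon and 5 genes of the interferon, chemokine and GTPase groups described below, are shown first. They are the 250 bases before the RefSeq start of each gene (GRCm38.p6, read 5′ to 3′ on the strand of the gene), and capitals mark matches on either strand to the ISRE core GAAANNGAA, the NF-κB consensus or the GAS core TTCNNNGAA. The genes are the interferon-β gene Ifnb1 (chr4:88522795-88523044, minus strand), the ubiquitin-like modifier Isg15 (chr4:156200819-156201068, minus strand), the translation inhibitor Ifit1 (chr19:34640639-34640888, plus strand), the antiviral enzyme Rsad2 (chr12:26456453-26456702, minus strand), the chemokine Cxcl10 (chr5:92348890-92349139, minus strand) and the guanylate-binding protein Gbp5 (chr3:142496684-142496933, plus strand).
Ifnb1: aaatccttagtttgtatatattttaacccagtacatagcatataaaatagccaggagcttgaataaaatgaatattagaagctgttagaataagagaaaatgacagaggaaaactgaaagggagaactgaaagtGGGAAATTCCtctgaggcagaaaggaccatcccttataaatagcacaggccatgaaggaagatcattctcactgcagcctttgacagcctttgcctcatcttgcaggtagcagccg
Isg15: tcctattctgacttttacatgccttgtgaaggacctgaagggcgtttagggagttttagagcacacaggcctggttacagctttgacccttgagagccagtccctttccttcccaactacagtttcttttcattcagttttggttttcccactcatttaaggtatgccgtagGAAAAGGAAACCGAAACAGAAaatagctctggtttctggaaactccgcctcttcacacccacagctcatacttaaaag
Ifit1: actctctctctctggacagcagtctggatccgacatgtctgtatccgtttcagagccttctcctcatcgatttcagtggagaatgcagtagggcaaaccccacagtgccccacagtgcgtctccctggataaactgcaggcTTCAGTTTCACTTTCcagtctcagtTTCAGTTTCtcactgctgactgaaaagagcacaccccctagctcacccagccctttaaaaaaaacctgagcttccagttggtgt
Rsad2: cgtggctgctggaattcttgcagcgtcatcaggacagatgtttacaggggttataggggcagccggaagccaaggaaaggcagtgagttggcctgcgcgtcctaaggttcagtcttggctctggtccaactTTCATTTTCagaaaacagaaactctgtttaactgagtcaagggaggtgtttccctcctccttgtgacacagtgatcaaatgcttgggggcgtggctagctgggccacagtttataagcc
Cxcl10: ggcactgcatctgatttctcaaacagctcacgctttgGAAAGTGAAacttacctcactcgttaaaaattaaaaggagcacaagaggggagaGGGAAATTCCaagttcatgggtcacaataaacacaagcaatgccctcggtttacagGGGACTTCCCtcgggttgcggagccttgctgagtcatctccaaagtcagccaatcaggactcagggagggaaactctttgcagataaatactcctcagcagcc
Gbp5: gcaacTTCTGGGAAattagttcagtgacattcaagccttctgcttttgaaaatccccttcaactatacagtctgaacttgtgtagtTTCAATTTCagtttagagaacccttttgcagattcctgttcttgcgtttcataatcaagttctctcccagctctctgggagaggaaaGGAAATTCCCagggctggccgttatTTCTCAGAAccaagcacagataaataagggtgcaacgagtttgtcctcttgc

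The Ifnb1 window held an NF-κB match 116 to 107 bases before the start and no ISRE match in these letters. The Isg15 window held 3 overlapping ISRE matches between bases 78 and 58, and the Ifit1 window held 3, a pair that overlap between bases 109 and 95 and 1 at bases 84 to 76. Rsad2 held 1 ISRE match, Cxcl10 held 1 ISRE and 2 NF-κB matches, and Gbp5 held 1 of each and 2 GAS matches. Over all 32841 RefSeq promoter windows of this length, 7.13% held an ISRE match, 3.9% an NF-κB match and 7.02% a GAS match. Of the 65 windows found for 52 of the 61 antiviral effector genes tested, 26 (40%) held an ISRE match, as did 7 of 18 windows (38.9%) of the interferon-induced PARP and TRIM genes and 2 of 47 windows (4.26%) of the G2/M genes. The AP-1 core TGANTCA was found in 12 of the 65 antiviral windows (18.5%) and in 6.75% of all windows. These gene groups were chosen with earlier results of these data known, so the shares are a description. Of the guanylate-binding and immunity-related GTPase genes 58.8% and of the chemokines 50% had a window, too few to give a share, and the remaining gene groups were not searched.

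The vehicle libraries held between 17925495 and 21990131 counted reads and the HT-DNA libraries between 20463434 and 20880868. Scaling factors computed with TMM, a method that assumes most genes do not change, were 1.03 to 1.05 with vehicle and 0.89 to 0.90 with HT-DNA. The microglial genes Csf1r and C1qa were high in both groups, with 976, 978 and 998 counts relative to the scaled library size (CPM) of Csf1r in the 3 vehicle libraries and 813, 827 and 847 in the 3 HT-DNA libraries. The defining marker Siglech was at 0 in all vehicle libraries and P2ry12 and Tmem119 were below 20 CPM in all 6. Cgas, listed as Mb21d1, had 27.2, 18.8 and 23.5 CPM with vehicle and 39.5, 39.2 and 44.3 CPM with HT-DNA in wild-type cells, against 4.07, 5.47 and 5.23 and 3.76, 3.93 and 4.18 CPM in the libraries labelled Cgas-/-. Reads at the 3′ end of Cgas may lie outside the deleted part, which the sources used here do not describe, so they do not settle the genotype. The 6 libraries were distinct from each other beyond sampling noise.

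HT-DNA raised 723 genes (5.29% of the 13675 tested) and lowered 382 (2.79%), counting genes with an adjusted p under the 0.05 limit in edgeR's quasi-likelihood test and a log2 fold change beyond 1. These shares are the background against which the counts of every gene list below are to be read. Beyond 2 on the log2 scale there were 208 rises and 45 falls, and beyond 4 there were 19 rises and 3 falls. With no minimum fold, 3112 genes were higher (22.8%) and 3376 lower (24.7%), and the median log2 fold change of all tested genes was -0.03. The ratio of rises to falls depended on the scaling. Without a scaling factor the same test gave 528 rises and 760 falls, so that 41.0% rather than 65.4% of the called genes were higher, and the median of all genes moved to -0.24. RLE scaling gave 748 and 345. Among the genes named below, the rises of Aim2, Axl, C3ar1, Casp1, Nlrp3, Pfkfb3, Plin2, Plk2, Psmb8, Psmb10, Rfc3, Tap2, Tapbpl and Tnfaip3 fell short of the fold threshold without a scaling factor, with log2 fold changes between 0.80 and 1.0.

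Among the genes that rose, the 3 HT-DNA libraries lay above all 3 vehicle libraries for 710 of 723. Among all tested genes such a separation occurred in 26% upward and 28.5% downward. For the fallen genes 366 of 382 were separated. Because the same libraries chose the called genes, their separation was largely set by that choice and is only a description. The risen genes took 4.45%, 3.34% and 3.86% of all counts in the vehicle libraries and 10.7%, 11.2% and 11.1% in the HT-DNA libraries, whereas the fallen genes took 0.41% to 0.44% with vehicle and 0.15% to 0.17% with HT-DNA. The median vehicle level was 9.44 CPM for risen genes, 2.38 CPM for fallen genes and 17.7 CPM for all tested genes, so the falls were mostly in genes of low level. Protein-coding genes made up 625 of the 723 rises and 311 of the 382 falls.

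**Figure D1:**
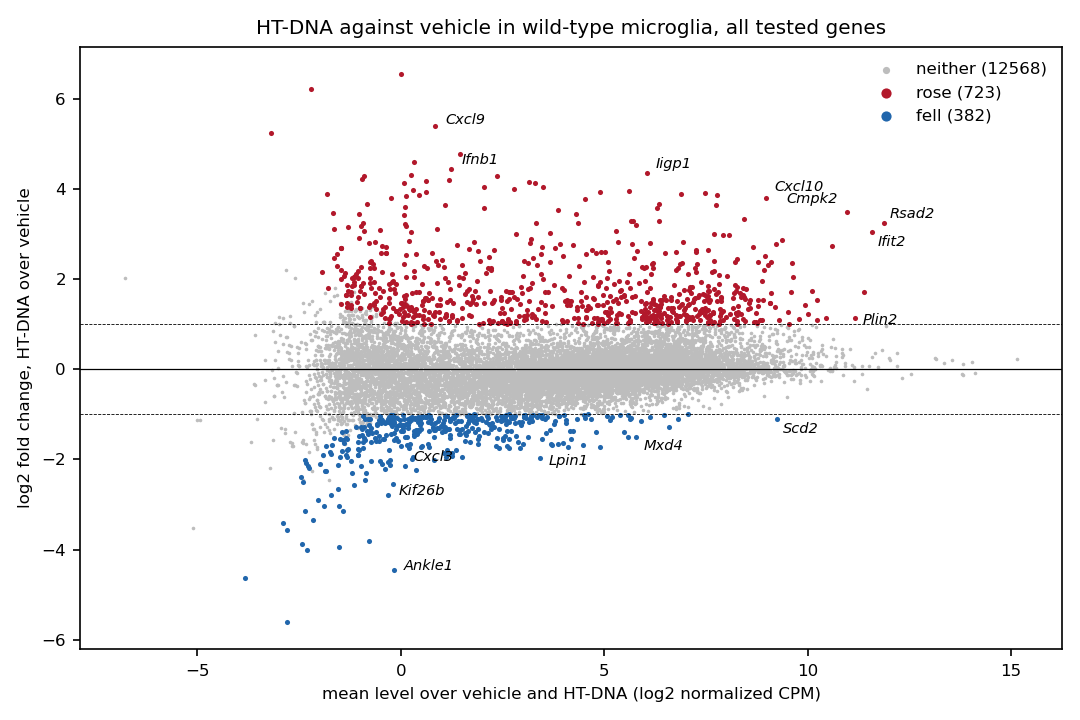
Each point is a tested gene, with its mean level over both groups on the horizontal axis (log2 of normalized CPM) and its log2 fold change, HT-DNA over vehicle, on the vertical axis. Of the genes called, 723 lie above 1 and 382 below -1, and 2 tested genes at 0 in all 6 libraries are not drawn.

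Of the interferons, Ifnb1 alone passed the filter, and its level went from near nothing to a few CPM. Its counts were 10, 0 and 3 with vehicle and 71, 96 and 83 with HT-DNA (log2 fold change 4.44 ± 0.58 (SE), edgeR adjusted p = 6.8e-07). The groups did not overlap. The 21 other genes of the interferon and receptor list were not tested, 10 of them had no count in any of the 6 libraries, and the highest single count among them was 5, for Ifna2. Together they held 8 counts with vehicle and 36 with HT-DNA. The receptor chains moved little. Ifnar1 and Ifnar2, the receptor for type I interferons, had log2 fold changes of 0.18 ± 0.04 and 0.25 ± 0.05 (SE), and Ifngr1, a chain of the interferon-γ receptor, had -0.41 ± 0.06.

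Of 19 tested genes for DNA sensing and DNA handling, 3 rose (15.8%, against 5.29% of all tested genes) and none fell, and the list median was -0.07 against -0.03 for all genes. Samhd1, a nuclease-related enzyme that depletes nucleotides, had 363, 244 and 323 CPM with vehicle and 1229, 1327 and 1297 CPM with HT-DNA (log2 fold change 2.05 ± 0.08 (SE), edgeR adjusted p = 8.7e-18). Zbp1, a sensor of Z-form nucleic acid, and Aim2, the DNA sensor of the inflammasome, had log2 fold changes of 1.93 ± 0.11 and 1.19 ± 0.07. Cgas (0.83 ± 0.09), Tbk1 (0.75 ± 0.04) and Sting1, listed as Tmem173 (0.26 ± 0.07), were higher at adjusted p = 2.0e-08, 1.0e-14 and 0.0018 in edgeR but stayed short of the fold threshold, and Irf3 did not pass the test (-0.07 ± 0.06). Slc19a1, a transporter of cyclic dinucleotides, was lower at -0.91 ± 0.13, also short of it, and passed it (-1.01) when HT-DNA replicate 3 was left out.

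Downstream of the receptor, 10 of 21 signal transducers rose and none fell. Irf7, which amplifies interferon production, had 215, 134 and 170.3 CPM with vehicle and 778, 905 and 904 CPM with HT-DNA (log2 fold change 2.32 ± 0.12 (SE), edgeR adjusted p = 1.3e-15). The vehicle libraries were spread, with replicate 1 highest and replicate 2 lowest, and all lay far below the HT-DNA libraries. Stat2 (1.46 ± 0.09), Jak2 (1.59 ± 0.06), Irf1 (1.36 ± 0.09) and Batf2 (2.35 ± 0.22) rose as well. Their negative regulators rose beside them, Usp18, which binds the receptor, by 2.37 ± 0.14, and the suppressors of cytokine signalling Socs1, Socs3 and Cish by 1.34 ± 0.17, 1.24 ± 0.14 and 1.27 ± 0.27, although Cish stood at 0.93 when HT-DNA replicate 2 was left out. Irf9 did not pass the test (0.08 ± 0.05), but its annotated span overlaps Rnf31 on the same strand, so its counts may be shared or lost. Irf4 and Batf3 had negative log2 fold changes of -0.85 and -0.58.

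Nearly all antiviral effectors rose, with 55 of 61 called higher (90.2%, against 5.29% of all tested genes), none lower and a median log2 fold change of 1.78. Members of this and the other lists were chosen with earlier results of these data known, so the counts are descriptions of the lists. Summed over the list, the level was 12675, 7546 and 9917 CPM in the vehicle libraries and 43135, 46278 and 45345 CPM in the HT-DNA libraries, so vehicle cells already expressed these genes at an appreciable level. Rsad2, which makes a chain-terminating nucleotide, had the largest gain in CPM, with 1067, 377 and 714 CPM with vehicle and 6418, 7195 and 6821 CPM with HT-DNA (log2 fold change 3.24 ± 0.25 (SE), edgeR adjusted p = 9.1e-12). The groups did not overlap, and within the vehicle group replicate 1 was highest and replicate 2 lowest, as in the summed level of the list. Its neighbour Cmpk2, a mitochondrial nucleotide kinase, had 485, 168 and 338 CPM with vehicle and 3506, 3936 and 3689 CPM with HT-DNA (3.49).

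Ifit2 (949.9, 386 and 650.0 CPM, then 5232, 5617 and 5468 CPM), Ifit3 (2.72) and Ifit1 (2.35), which bind foreign RNA and block its translation, all rose. Isg15 had 147, 70.5 and 109 CPM with vehicle and 617, 778 and 723 CPM with HT-DNA (log2 fold change 2.70 ± 0.15 (SE), edgeR adjusted p = 6.6e-15). Mx1 (2.77) and Mx2 (2.20), GTPases that block virus entry or replication, the oligoadenylate synthetase family members Oasl1 (3.20), Oas3 (1.87) and Oas2 (1.62), and the kinase Eif2ak2 (1.23), which shuts down translation when it binds double-stranded RNA, rose too. The largest rises by fold in this list were Ifit1bl1 (3.92) and Ifi205 (3.86), and the 6 members that were not called were Bst2 (0.91), Slfn3 (0.88, and 1.10 without vehicle replicate 1), Ifi27l2a (0.80), Shisa5 (0.45), Ifitm2 (0.17) and Ifi27 (-0.15). Members of the Ifi200, Ifit, Oas and Slfn families are similar in sequence, so counts may be shared unevenly between paralogs.

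All 17 tested guanylate-binding proteins and immunity-related GTPases, which attack the vacuoles that hold intracellular microbes, rose, with a median log2 fold change of 2.82. Iigp1 had 9.31, 3.46 and 5.83 CPM with vehicle and 118, 138 and 125 CPM with HT-DNA (log2 fold change 4.36 ± 0.16 (SE), edgeR adjusted p = 2.6e-18). Gbp2 had 94.2, 36.9 and 57.3 CPM with vehicle and 579, 664 and 645 CPM with HT-DNA, a log2 fold change of 3.32 ± 0.17. Gbp5 had 52.5, 14.5 and 28.2 CPM with vehicle and 365, 431 and 396 CPM with HT-DNA, a log2 fold change of 3.64 ± 0.20. In each the vehicle libraries kept the order of replicate 1, replicate 3 and replicate 2 from high to low, and no vehicle library reached an HT-DNA library. Without a scaling factor 16 of the 17 were called. The annotated spans of some members overlap on the same strand, Gbp4 with Gbp8 and Gbp9 and Igtp with Irgm2, so their counts may not be independent.

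Of 11 sensors of RNA tested, 7 rose and none fell, and the median was 1.12. Ifih1, which encodes MDA5, had 178, 109.8 and 138 CPM with vehicle and 704, 769 and 751 CPM with HT-DNA (log2 fold change 2.38 ± 0.10 (SE), edgeR adjusted p = 3.9e-17). Tlr3, the endosomal receptor for double-stranded RNA, rose by 2.34 ± 0.10, Ddx58, which encodes RIG-I, by 1.80 ± 0.10 and Dhx58, which encodes LGP2, by 1.67 ± 0.09, while their adaptor Mavs was slightly lower (-0.26). Of 20 interferon-induced PARP and TRIM genes, 13 rose and none fell, with a median of 1.27. Parp14, an ADP-ribosyltransferase, had 652, 401 and 534 CPM with vehicle and 1435, 1424 and 1421 CPM with HT-DNA. Pml, which organizes nuclear bodies, rose by 1.69 ± 0.09. Without a scaling factor 5 of the 11 RNA sensors and 10 of the 20 PARP and TRIM genes were called.

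**Figure D2:**
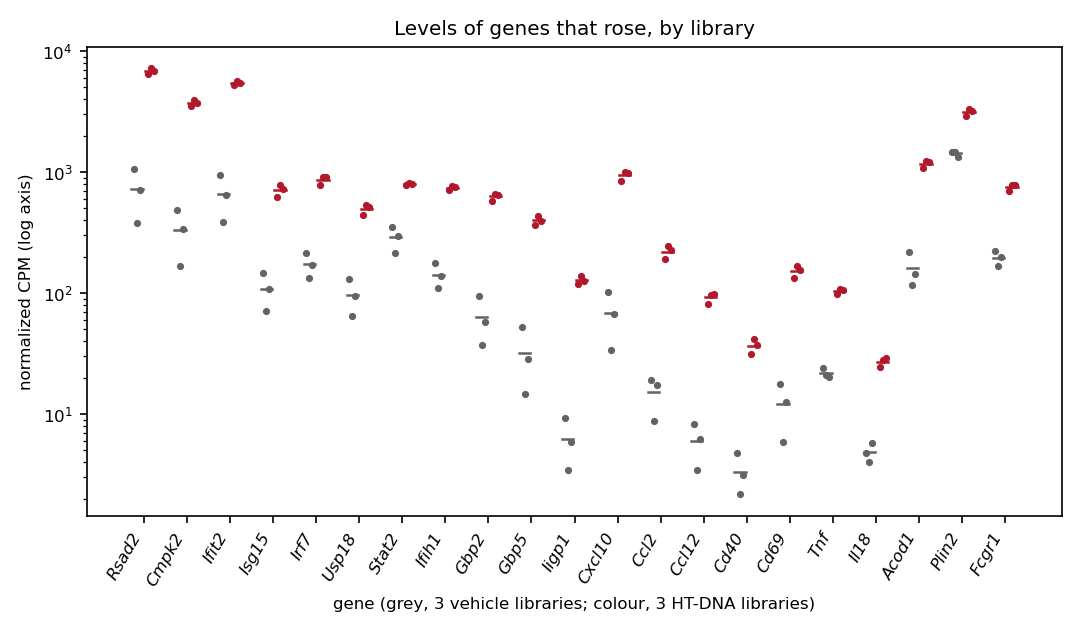
Normalized level (CPM, log scale) of risen genes in each of the 3 vehicle and 3 HT-DNA libraries, 1 point per library. In every gene drawn the HT-DNA points lie above the vehicle points, and for Rsad2 vehicle replicate 1 lies highest and replicate 2 lowest among the vehicle libraries.

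Of 14 tested chemokines, which draw T cells and monocytes, 9 rose and none fell, with a median log2 fold change of 2.40. Cxcl9 and Cxcl11, ligands of CXCR3 on activated T cells, were nearly silent with vehicle, with 4, 0 and 1 counts of Cxcl9 and 3, 0 and 3 counts of Cxcl11. With HT-DNA they had 62, 65 and 67 and 27, 50 and 56 counts. The fitted log2 fold change of Cxcl9 was 5.39 ± 0.53 (edgeR adjusted p = 3.0e-09), and the ratio of Cxcl11 counts, corrected for library size, was 25.7 with a 95% exact interval of 11.5 to 71.4 that covers counting error only. The third CXCR3 ligand, Cxcl10, was already present, with 102, 33.5 and 67.6 CPM with vehicle and 841, 1002 and 982 CPM with HT-DNA (log2 fold change 3.80 ± 0.21 (SE), edgeR adjusted p = 7.3e-15).

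The monocyte attractants Ccl2 (18.9, 8.78 and 17.5 CPM with vehicle, 190.2, 244 and 226 CPM with HT-DNA), Ccl7 (4.12 ± 0.23) and Ccl12 (3.95 ± 0.16) rose as well. Ccl3 (2.16 ± 0.10), Ccl4 (2.63 ± 0.11) and Ccl5 (1.64 ± 0.12) rose too. The remaining 5 of the list were not called.

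Of 31 NF-κB inflammatory genes tested, 14 rose and 1 fell, with a median of 0.83, and 25 were higher and 1 lower when no minimum fold was set. Tnf had 24.2, 21.1 and 20.2 CPM with vehicle and 97.5, 109 and 106 CPM with HT-DNA (log2 fold change 2.25 ± 0.10 (SE), edgeR adjusted p = 1.8e-16). Il18 (2.50 ± 0.12), Il27 (2.81 ± 0.31), Il15 (1.93 ± 0.12) and Il1rn, the antagonist of interleukin-1 (1.89 ± 0.07), rose as well. The groups did not overlap for these genes.

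Some inflammatory genes of this list had few counts in both groups. Il1b had 12, 13 and 9 counts with vehicle and 21, 14 and 37 with HT-DNA (log2 fold change 1.29 ± 0.43 (SE), edgeR adjusted p = 0.014), a call that was lost without HT-DNA replicate 3 (0.83, adjusted p = 0.17), and Il6 had 2, 0 and 1 and 5, 11 and 16 counts. The ratio of Il6 counts was 12.4, with a 95% exact interval of 3.88 to 63.2 for counting error. Cxcl1 was at 0 in all vehicle libraries and had 3, 3 and 6 counts with HT-DNA, at least 1.34-fold higher against a floor of 3 counts per library. Nos2, the inducible nitric oxide synthase, had 1, 1 and 5 counts with vehicle and 43, 36 and 46 with HT-DNA (4.30 ± 0.54), and Ptgs2, the inducible cyclooxygenase, rose by 1.69 ± 0.21.

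Feedback inhibitors of NF-κB, Nfkbia (1.30 ± 0.07) and Tnfaip3 (1.2 ± 0.06), rose. Cxcl3, a neutrophil attractant, fell against the direction of its group, with 34, 52 and 28 counts with vehicle and 8, 9 and 5 with HT-DNA (log2 fold change -2.14 ± 0.35 (SE), edgeR adjusted p = 8.5e-06). All 3 HT-DNA libraries lay below all 3 vehicle libraries.

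**Figure D3:**
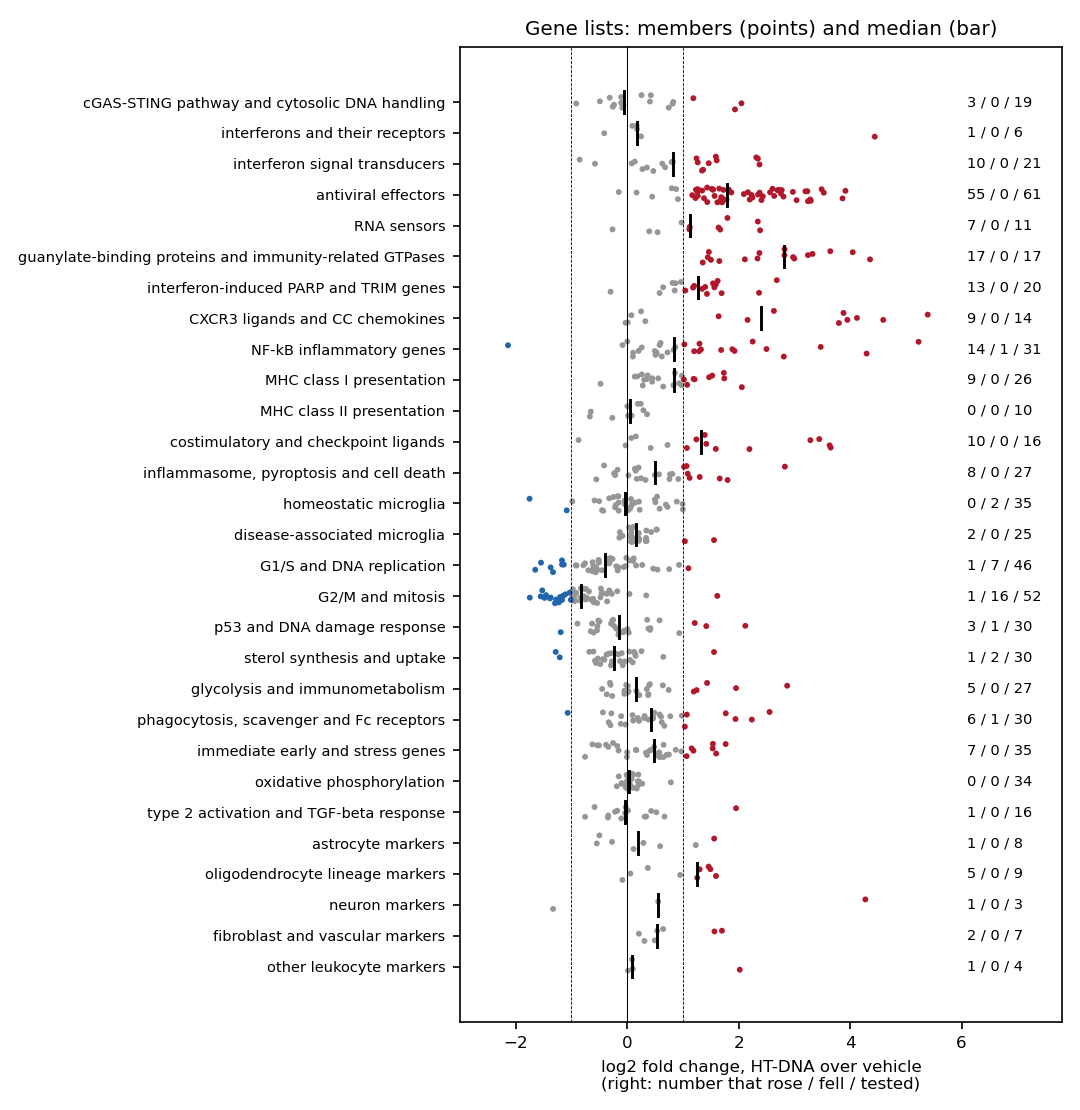
Log2 fold change, HT-DNA over vehicle, of every tested member of each gene list, 1 point per gene with the list median marked, and the numbers that rose, fell and were tested at the right. The guanylate-binding and antiviral lists sit to the right with medians of 2.82 and 1.78, and the G2/M list sits to the left with a median of -0.83.

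Of 26 tested genes for MHC class I presentation 9 rose and none fell, with a median of 0.84, and without a scaling factor 5 were called. Nlrc5, the transactivator of class I genes, had 119.6, 81.5 and 103 CPM with vehicle and 416, 428 and 419 CPM with HT-DNA (log2 fold change 2.06 ± 0.09 (SE), edgeR adjusted p = 3.0e-17). The peptide transporters Tap1 (1.73 ± 0.09) and Tap2 (1.21 ± 0.07) and the immunoproteasome subunits Psmb9 (1.47 ± 0.08), Psmb10 (1.19 ± 0.06) and Psmb8 (1.08 ± 0.06) rose, as did Tapbpl, a relative of the peptide editor tapasin (1.02 ± 0.08, and 0.95 to 1.0 without vehicle replicate 2 or HT-DNA replicate 2 or 3), and the non-classical class I genes H2-T22 (1.74 ± 0.08) and H2-T24 (1.53 ± 0.08). The classical heavy chains H2-K1 (0.45 ± 0.05) and H2-D1 (0.37 ± 0.05) and their light chain B2m (0.35 ± 0.04) were higher in the test but short of the fold threshold. No gene of the 10 tested for MHC class II was called in either direction, and the invariant chain Cd74 had 10.7, 9.3 and 9.98 CPM with vehicle and 11.5, 10.4 and 12.3 CPM with HT-DNA (0.19).

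Of 16 costimulatory and checkpoint ligands, surface proteins that meet T cells, 10 rose and none fell, with a median of 1.32. Cd40, a costimulatory receptor, had 4.74, 2.16 and 3.13 CPM with vehicle and 31.1, 41.4 and 37.2 CPM with HT-DNA (log2 fold change 3.45 ± 0.16 (SE), edgeR adjusted p = 2.2e-16). Cd274, which encodes the checkpoint ligand PD-L1, had 209.6, 144 and 170.3 CPM with vehicle and 739, 860.4 and 796 CPM with HT-DNA (2.19 ± 0.09). Cd69 (3.65 ± 0.18), the death ligand Tnfsf10, also called TRAIL (3.29 ± 0.18), Cd86 (1.39 ± 0.08) and Cd47, a signal against engulfment (1.59 ± 0.06), rose as well. Vsir, which encodes the checkpoint protein VISTA, had a log2 fold change of -0.87 ± 0.06, short of the threshold for a fall.

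Cell death genes rose in part, with 8 of 27 risen, none fallen and a median of 0.50. Mlkl, the effector of necroptosis, had 13.9, 7.14 and 8.74 CPM with vehicle and 63.2, 75.2 and 74.1 CPM with HT-DNA (log2 fold change 2.83 ± 0.14 (SE), edgeR adjusted p = 6.7e-16). Casp4 (1.80 ± 0.10), Casp8 (1.30 ± 0.05), Casp1 (1.12 ± 0.07) and Nlrp3 (1.09 ± 0.09), caspases and an inflammasome sensor, rose. Gsdmd, which forms pores in pyroptosis, had a log2 fold change of 0.81, the apoptotic genes Bax, Bbc3 and Bcl2l11 had -0.22, -0.41 and -0.55, and none of the 4 was called. Without a scaling factor 4 of the 27 genes were called.

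Among metabolic genes, 5 of 27 for glycolysis and immunometabolism rose and none fell. Acod1, which makes itaconate, had 218, 117 and 143 CPM with vehicle and 1074, 1222 and 1204 CPM with HT-DNA (log2 fold change 2.87 ± 0.13 (SE), edgeR adjusted p = 1.3e-16). Gch1, needed for the cofactor of nitric oxide synthase (1.43 ± 0.07), Nampt, an enzyme of NAD salvage (1.25 ± 0.06), Pfkfb3, an activator of glycolysis (1.19 ± 0.04), and Arg1, arginase (1.95 ± 0.21), rose. None of 34 genes of oxidative phosphorylation was called, with a median of 0.04 that turned to -0.17 without a scaling factor.

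Plin2, which coats lipid droplets, was among the 10 largest rises in CPM, with 1469, 1463 and 1339.9 CPM with vehicle and 2912, 3339 and 3176 CPM with HT-DNA (log2 fold change 1.14 ± 0.04 (SE), edgeR adjusted p = 9.3e-18). Ch25h, which makes 25-hydroxycholesterol, rose by 1.56 ± 0.09. Scd2, a fatty acid desaturase, was the largest fall in CPM, with 833, 857 and 804 CPM with vehicle and 418, 364 and 369.9 CPM with HT-DNA (log2 fold change -1.11 ± 0.05 (SE), edgeR adjusted p = 2.2e-16). The vehicle and HT-DNA libraries did not overlap for any of these 3 genes. Of 30 sterol synthesis and uptake genes only Ch25h rose (3.33%, against 5.29% of all tested genes) and 2 fell (6.67%, against 2.79%). Stard4 was among the falls (-1.28 ± 0.18), and the list median was -0.24. The number that fell was 1 in DESeq2, with RLE scaling, with no filter, with only the compared groups, and without vehicle replicate 1 or 3 or any 1 of the HT-DNA libraries. Lpin1, which makes diacylglycerol, had 16, 16.4 and 19 CPM with vehicle and 5.21, 3.82 and 4.04 CPM with HT-DNA (-1.97 ± 0.13).

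Of 30 genes for phagocytosis, scavenging and Fc receptors, 6 rose (20%, against 5.29% of all tested genes) and 1 fell (3.33%, against 2.79%). Fcgr1 had 221, 168 and 198 CPM with vehicle and 698, 779.9 and 781 CPM with HT-DNA (log2 fold change 1.94 ± 0.08 (SE), edgeR adjusted p = 1.6e-17), and Fcgr4 rose by 2.24 ± 0.10, both activating receptors for IgG. Of the TAM receptors for apoptotic cells, Axl rose (1.04 ± 0.04), Tyro3 fell (-1.07 ± 0.23, and -0.90 without HT-DNA replicate 2), and Mertk was short of the threshold (0.58 ± 0.05). C3ar1, the receptor for complement C3a, had 951, 819 and 871 CPM with vehicle and 1953, 1943 and 1929.6 CPM with HT-DNA (1.14 ± 0.04). Among 35 immediate early and stress genes 7 rose and none fell, of which Fos had 21.3, 21.6 and 21.1 CPM with vehicle and 62, 63.7 and 67.9 CPM with HT-DNA. Nr4a1 (1.77 ± 0.28), Dusp1 (1.54 ± 0.06) and Zfp36 (1.53 ± 0.06), the last a protein that destabilizes cytokine messages, rose, and without a scaling factor 4 of the 35 were called.

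Genes of microglial identity were mostly not called. Of 35 homeostatic genes none rose and 2 fell (5.71%, against 2.79% of all tested genes), with a median of -0.04. When no minimum fold was set, 11 of the 35 were higher and 12 lower, so smaller shifts went in both directions. The summed level of the list was 12226 to 12377 CPM with vehicle and 12191 to 12384 CPM with HT-DNA. Gpr34, a receptor for lysophosphatidylserine, had 6.82, 10.6 and 7.23 CPM with vehicle and 2.66, 2.1 and 2.57 CPM with HT-DNA (log2 fold change -1.75 ± 0.19 (SE), edgeR adjusted p = 7.4e-09). Hpgd, which degrades prostaglandins, fell with a log2 fold change of -1.08 ± 0.10, and stood at -0.97 without HT-DNA replicate 2. The purinergic receptor P2ry12 and the membrane protein Tmem119 moved in opposite directions just inside the fold threshold, 1.0 and -0.98, and were low in all libraries. With RLE scaling or DESeq2 2 of the 35 genes rose, P2ry12 (1.03) among them. P2ry12 also passed the threshold with only the compared groups (1.02), with the replicate number as a block (1.0) and without vehicle replicate 3 (1.06) or HT-DNA replicate 1 (1.02), and Tmem119 without vehicle replicate 1 (-1.01) or HT-DNA replicate 3 (-1.05). Cx3cr1 (-0.15), Trem2 (-0.05) and Sall1 (0.21) differed little. Of 25 disease-associated microglia genes 2 rose (8%, against 5.29% of all tested genes), Ch25h and Axl, and none fell. When no minimum fold was set, 17 of the 25 were higher and 3 lower. Apoe (-0.08) and Spp1 (0.22), which are abundant in these cells, were not called. Of 16 genes for type 2 activation and the TGF-β response only Arg1 rose (6.25%, near the share of all tested genes) and none fell.

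Of 52 tested G2/M and mitosis genes 16 fell and 1 rose, 45 were lower when no minimum fold was set, and the list median was -0.83. Cenpf, a kinetochore protein, had 9.79, 8.7 and 10.7 CPM with vehicle and 3.97, 2.15 and 2.57 CPM with HT-DNA (log2 fold change -1.75 ± 0.20 (SE), edgeR adjusted p = 2.4e-08). Ccnf, cyclin F, had 10.2, 9.17 and 9.07 CPM with vehicle and 3.37, 3.02 and 3.33 CPM with HT-DNA (-1.55 ± 0.13). Cdc20, which activates the anaphase-promoting complex, had 12.2, 8.31 and 10.8 CPM with vehicle and 4.13, 2.75 and 4.31 CPM with HT-DNA (-1.48 ± 0.18). The groups did not overlap for these genes, although their levels were low.

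Ccnb1 (-1.17 ± 0.14), Foxm1, a transcription factor for mitotic genes (-1.14 ± 0.17), and Birc5, survivin (-1.27 ± 0.19), fell too. Plk1 (-0.82), Aurka (-0.78), Top2a (-0.77) and Mki67 (-0.94) were lower but short of the fold threshold, and Cdk1 did not pass the test (0.04). Mki67 reached -1.0 without vehicle replicate 2 and -1.05 without HT-DNA replicate 1. The 1 gene that rose was Pttg1, securin, with 24.8, 17.9 and 23.9 CPM with vehicle and 61.4, 70.0 and 72.3 CPM with HT-DNA (log2 fold change 1.62 ± 0.09 (SE), edgeR adjusted p = 1.2e-14). Without a scaling factor 27 of the 52 fell and 1 rose. Since these are bulk libraries, fewer dividing cells and less message per dividing cell cannot be told apart.

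Of 46 G1/S and replication genes 7 fell (15.2%, against 2.79% of all tested genes) and 1 rose (2.17%, against 5.29%), with a median of -0.40. E2f7, a repressor of E2F targets (-1.65 ± 0.37), Ung, a DNA repair enzyme (-1.54 ± 0.20), and Rrm2, a subunit of ribonucleotide reductase (-1.33 ± 0.18), fell. Rfc3, a clamp loader subunit, rose by 1.10 ± 0.12. Of 30 genes of the p53 and DNA damage response 3 rose (10%, against 5.29% of all tested genes) and 1 fell (3.33%, against 2.79%). Gadd45g had 31.1, 23.1 and 26.1 CPM with vehicle and 107, 123 and 118 CPM with HT-DNA (log2 fold change 2.12 ± 0.08 (SE), edgeR adjusted p = 2.4e-18), Gadd45b rose by 1.42 ± 0.11 and Plk2 by 1.21 ± 0.05, and the checkpoint kinase Chek1 fell (-1.19 ± 0.37, and -0.99 without HT-DNA replicate 2). Cdkn1a, which encodes p21, was short of the threshold (0.93 ± 0.05), and Trp53 did not pass the test (-0.06).

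**Figure D4:**
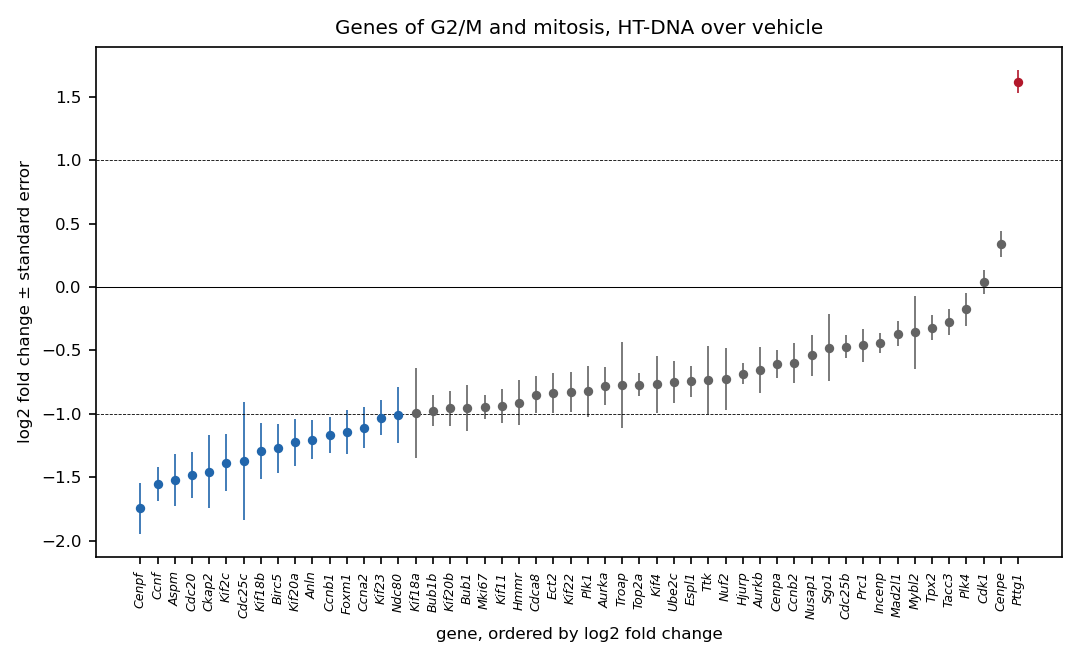
Log2 fold change, HT-DNA over vehicle, of each of the 52 tested G2/M and mitosis genes, ordered from the largest fall at the left to the rise at the right, with bars for the SE. Cenpf lies at -1.75 and Pttg1 at 1.62, and the 16 genes that fell are in colour at the left, below the dashed line at -1.

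Outside the lists, the largest falls by fold, among genes with separated groups, a mean count of at least 20 in the higher group and an established symbol, were in genes of low count. Ankle1, a nuclease, had 40, 45 and 26 counts with vehicle and 0, 2 and 2 with HT-DNA, a ratio of 0.042 with a 95% exact interval of 0.011 to 0.11 for counting error. Kif26b (29, 35 and 27 counts, then 6, 1 and 4) and Vipr1, a receptor for vasoactive intestinal peptide (26, 39 and 31 counts, then 6, 3 and 5), had log2 fold changes of -2.80 ± 0.44 and -2.54 ± 0.43. Fam83d, Zfyve28, Atg9b, Klhl33, Camk2a, Tfap4, Treml4, Neurl1b, Frat2 and Klhl23 fell by log2 fold changes between -2.23 and -1.95. Their counts were low in both groups.

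Arrb1, β-arrestin 1, had 138, 134 and 141 CPM with vehicle and 62.5, 50.8 and 57.1 CPM with HT-DNA (log2 fold change -1.28 ± 0.07 (SE), edgeR adjusted p = 6.5e-15). Mxd4, a repressor that pairs with MAX, had 72.6, 87.6 and 82.1 CPM with vehicle and 26.9, 28.2 and 30.4 CPM with HT-DNA (-1.5 ± 0.08). Klhl24 (-1.09), Zfp704 (-1.15), Nav2 (-1.38) and Tbc1d16 (-1.51) fell as well. Pald1 (-1.0), Stard9 (-1.02) and Pkd1 (-1.06) fell just past the threshold and lost the call without HT-DNA replicate 2 (-0.94, -0.96 and -0.99), Pald1 also without vehicle replicate 3 (-0.97) and Stard9 without vehicle replicate 2 (-0.99). Pald1 was also not called in DESeq2 or with RLE scaling (-0.97 in each) or with only the compared groups (-0.99), nor was Stard9 in DESeq2 or with RLE scaling (-0.99 in each). The remaining large rises by fold under the same conditions were Klrk1, the activating receptor NKG2D (7, 5 and 3 counts, then 79, 79 and 82), Apol9a (4.17 ± 0.50), Mmp25, a membrane protease (4.12 ± 0.57), Flt4, a VEGF receptor (4.03 ± 0.36), Vcan, the matrix proteoglycan versican (3.99 ± 0.26), and Hdc, which makes histamine (3.97 ± 0.55). Olfr56 also appeared there (4.15 ± 0.20), but its annotated span overlaps interferon-induced GTPase genes, so its reads may belong to them.

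Some markers of other cell types were counted and some rose. Of 9 tested oligodendrocyte lineage markers 5 rose (55.6%, against 5.29% of all tested genes), Olig1 (1.59) among them, and none fell. The summed level of the list was 641 to 663 CPM with vehicle and 709 to 726 CPM with HT-DNA. Most of that sum was Cspg4, which encodes the proteoglycan NG2, with 525 ± 12.2 CPM with vehicle and 495 ± 4 CPM with HT-DNA (SD, n = 3 each), and it was not called. Cnp had 41.7, 35.3 and 36.8 CPM with vehicle and 94.2, 110.2 and 109 CPM with HT-DNA, while Mbp did not pass the test (0.06) and Mog, Sox10 and Olig2 were below 1 CPM in all 6 libraries. Of 8 astrocyte markers 1 rose, Aldh1l1 (1.56 ± 0.17), with a summed level of 9.69 to 10.4 CPM against 15.6 to 18.7 CPM and Gfap at 1.26 CPM or less. Of 7 fibroblast and vascular markers 2 rose, Flt1 (1.57 ± 0.07) and Cdh5 (1.70 ± 0.38), and the summed level was 91.6 to 103 CPM against 282 to 285 CPM, nearly all of it Flt1 (97.4, 86 and 95 CPM, then 273, 274 and 277 CPM), while Cldn5 was at 0.109 CPM or less. Of 3 neuron markers Nefm rose (2, 0 and 1 counts, then 22, 17 and 17), and of 4 markers of other leukocytes Xcr1 rose (2.02 ± 0.44), with Cd3e at 1 count or none per library. What part these markers had in the other results was not tested.

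Risen genes often lay side by side. Of the 723, 259 (35.8%) had another risen gene as the next tested gene on the chromosome, whereas 9.74% of all tested genes had a risen neighbour. For the 382 fallen genes it was 47 (12.3%) against 5.44%. The longest run was 14 consecutive tested genes at chr1:173350879-174031810 (GRCm38), which held Aim2 and the Ifi200 family. Further runs were 7 genes around the Trim30 family at chr7:104355382-104507849, 6 genes of the Ifit family at chr19:34550694-34650009, 6 genes with the Phf11 family and Setdb2 at chr14:59244441-59440884 and 4 genes at chr17:34181987-34216321 that comprised Psmb9, Tap1, Psmb8 and Tap2. Such families share sequence, and neighbouring genes can share reads.

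The lists above held 190 of the 723 rises (26.3%) and 30 of the 382 falls (7.85%), against 4.83% of all tested genes, so most called genes lay outside them.

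The same dose of HT-DNA in Cgas-/- microglia raised 2 genes (0.0146% of those tested) and lowered 1 (0.00731%). The response itself differed between genotypes, by the interaction of treatment and genotype in edgeR, for 558 genes in the direction of a larger value in wild-type cells (4.08%) and 299 in the other direction (2.19%). Of the 723 genes that rose in wild-type cells 468 (64.7%) were among the former and none among the latter, and of the 382 that fell 210 (55%) were among the latter. Because the interaction includes the contrast that chose these genes, the shares are a description. The median log2 fold change of the 723 genes was 1.54 in wild-type and 0.08 in Cgas-/- cells, and of the 382 genes -1.31 and -0.05. With no minimum fold, 22 of the 723 were higher in Cgas-/- cells too, and 2 of the 382 were lower.

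For some genes the vehicle libraries of the genotypes did not overlap. Rsad2 had 3.57, 8.81 and 6.16 CPM in the Cgas-/- vehicle libraries and 10.2, 25.6 and 11 CPM with HT-DNA, far below the wild-type vehicle libraries given above. Irf7 had 3.63, 4.69 and 4.62 CPM with vehicle and 3.92, 7.74 and 7.11 CPM with HT-DNA in Cgas-/- cells, and Ifnb1 had no count in any of the 6. Of the 255 rises whose interaction was not called, 69 had 3 counts or fewer in each of the 6 Cgas-/- libraries, where a change could not be measured. Ccnf had 4.02, 4.01 and 4.79 CPM and Arg1 had 84.1, 99.3 and 88.1 CPM in the Cgas-/- vehicle libraries. The vehicle levels of the genotypes were not tested against each other. Whether the wild-type and Cgas-/- cultures were grown and handled together is not given in the sources used here, so genotype and culture cannot be told apart.

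**Figure D5:**
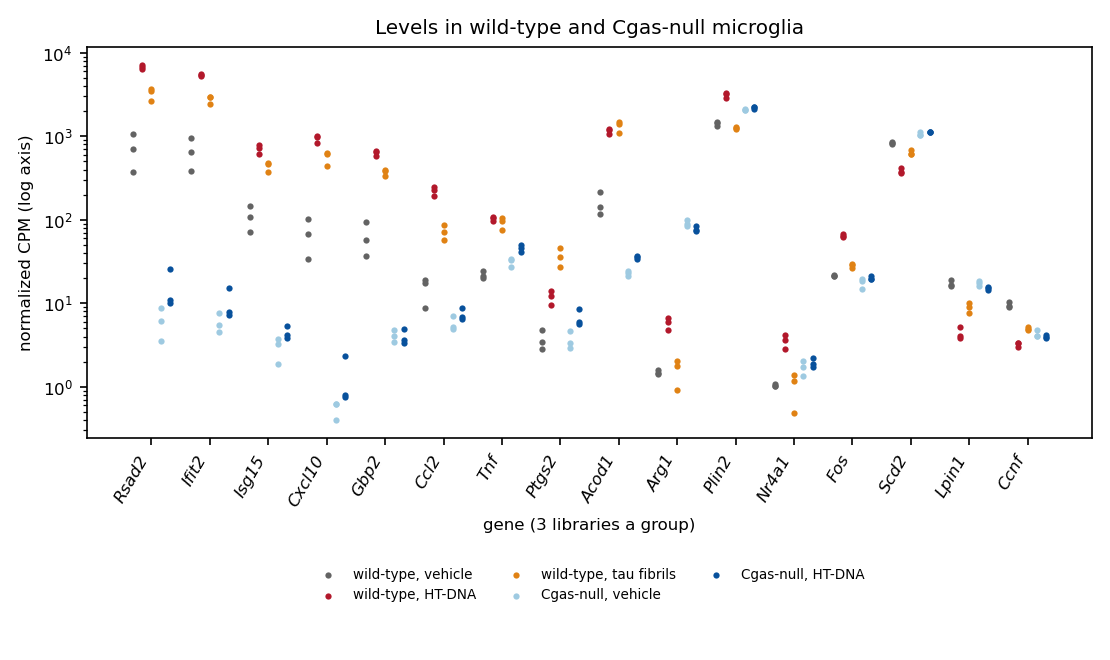
Normalized level (CPM, log scale) in each library of the wild-type vehicle, HT-DNA and tau groups and the Cgas-/- vehicle and HT-DNA groups, 1 point per library. Rsad2 lies between 377 and 7195 CPM in the wild-type vehicle and HT-DNA libraries and at 25.6 CPM or less in the Cgas-/- libraries.

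Tau fibrils are the other stimulus given to the same cells for the same time. HT-DNA and tau libraries were compared directly, without the vehicle libraries that both comparisons against vehicle share. In that test 204 genes were higher with HT-DNA (1.49%) and 243 lower (1.78%). Of the 723 genes raised by HT-DNA 144 were higher with HT-DNA than with tau, 9 were lower and 570 were neither, and of the 382 fallen genes 105 were lower with HT-DNA and none was higher. Because the same HT-DNA libraries chose these genes, the split is tilted in advance in the direction of the choice and is only a description. The median log2 fold change against vehicle of the 723 genes was 1.54 with HT-DNA and 0.93 with tau, in genes chosen by the first of these values.

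Several NF-κB targets were lower with HT-DNA than with tau. Il1b was lower with HT-DNA than with tau by a log2 difference of -3.89 (edgeR adjusted p = 6.0e-13), with 371, 286 and 471 counts with tau. Il6 (-2.04), Nos2 (-2.08), Traf1 (-2.46) and Cxcl1 (-2.66) were lower as well, and Cxcl3, which HT-DNA lowered, had 201, 209 and 244 counts with tau. The vehicle and HT-DNA counts of Il6 and Cxcl1, given above, were too low to pass the low-count filter by themselves. Both genes were tested only through counts in other groups, so the filter favoured a lower value with HT-DNA for them. Genes higher with HT-DNA included Ifnb1, by a log2 difference of 4.198 (edgeR adjusted p = 2.6e-06). With tau against vehicle, Ifnb1 had a log2 fold change of 0.243 and did not pass the test (edgeR adjusted p = 0.87). The chemokine Ccl2 (1.61), Gadd45g (1.61), the orphan nuclear receptor Nr4a1 (1.78) and Iigp1 (1.69) were also higher with HT-DNA than with tau. Plin2 had 1294, 1239 and 1263 CPM with tau, near the vehicle level given above, and its log2 difference between HT-DNA and tau was 1.31 (edgeR adjusted p = 4.2e-18). Tau fibrils and HT-DNA are different agents, so the differences hold for the amounts used here.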

How the data were processed

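The deposited table held raw read counts per Ensembl gene for 18 microglia libraries, 6 groups of 3, made by the authors without normalization from QuantSeq 3′ libraries. The submitters' processing notes name the build GRCm38, edgeR and limma. The aligner, the counter and the annotation are not given in the sources used here. Columns were matched to samples by name and groups were taken from the sample labels. Because reads come from 3′ ends, CPM were not divided by transcript length, and ranks and medians of CPM across genes are of 3′ read counts, not of molecules per cell.

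Counts were tested with edgeR 4.0.16 in R 4.3.3 (filterByExpr, TMM scaling, glmQLFit and glmQLFTest) in 1 fit of all 6 groups, with Benjamini-Hochberg adjustment over 13675 genes. Calls needed both an adjusted p below 0.05 and a change larger than 1 on the log2 scale. CPM are counts relative to the TMM-scaled library size, and 3 counts were taken as the floor. Each SE was derived from the test, as the size of the log2 fold change divided by the square root of its F statistic. It is unreliable where counts are near 0. Intervals and floors cover counting error only. An exact permutation test of 3 against 3 has a smallest p of 0.1, so single-gene tests rest on the spread shared across genes, and the p-values measure the spread between these libraries. Total counts were 17037459 to 25174764 over the 18 libraries.

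Genes named were the 15 largest rises and 15 largest falls by fold, with separated groups, a mean count of at least 20 in the higher group and an established symbol, which set aside 88 of 639 eligible rises and 40 of 300 falls, the 10 largest rises and 10 largest falls by CPM, and members of 29 gene lists. Members and lists were chosen with earlier results of these data known. Promoters came from RefSeq. Alternatives were DESeq2 1.42.0, RLE scaling, no filter, only the compared groups, a replicate block, no minimum fold, and each library left out. Scaling by library totals alone was added after seeing the data. Scripts were tested on simulated data. Hippocampal libraries and the tau-treated Cgas-/- libraries entered no comparison, although the latter entered the filter and the fit. A few genes of the lists are not reported here by name.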

Additional observations from a re-analysis of the deposited data

Results flagged for a closer look

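A response that differed between genotypes was found for 468 of the 723 genes that HT-DNA raised in wild-type microglia and for 210 of the 382 that it lowered, by the interaction of treatment and genotype in edgeR with an adjusted p under the 0.05 limit and a difference beyond 1 on the log2 scale. The interaction uses the wild-type contrast that chose these genes, and for genes such as Rsad2 the vehicle libraries of the genotypes did not overlap, so the numbers describe the libraries.

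Of the 10 largest rises by fold in wild-type cells, among genes with separated groups, a mean count of at least 20 in the higher group and an established symbol, the response was larger than in Cgas-/- cells by 8.62 for Cxcl9, 4.96 for Nos2 and 5.25 for Olfr56 on the log2 scale (edgeR adjusted p = 0.0014, 0.041 and 5.1e-05). In each of these 3 genes no Cgas-/- library with vehicle or HT-DNA held more than 3 counts, so the sizes depend on the treatment of counts near 0. The call of Cxcl9 was lost without Cgas-/- vehicle replicate 3 (5.39), and that of Nos2 without wild-type vehicle replicate 1 or 2, wild-type HT-DNA replicate 3, Cgas-/- vehicle replicate 2 or Cgas-/- HT-DNA replicate 2 or 3 (1.71 to 5.23). The other 7 were not called. Among them Cxcl11, Ifnb1, Klrk1 and Apol9a had no count in any Cgas-/- library with vehicle or HT-DNA. Ccl7 had a difference of 2.15 (edgeR adjusted p = 0.096), and 2.58, which was called, without wild-type vehicle replicate 1. DESeq2 called Apol9a, Ccl7, Cxcl11, Iigp1 and Klrk1 (2.14 to 4.89).

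Of the 10 largest falls under the same conditions, the difference between the responses was -2.97 for Ankle1, -3.09 for Kif26b, -3.11 for Vipr1, -3.35 for Cxcl3, -2.18 for Atg9b, -2.45 for Klhl33, -1.74 for Camk2a and -1.84 for Tfap4. Fam83d and Zfyve28 were not called, although Fam83d was called without wild-type HT-DNA replicate 3 (-3.20). The call of Camk2a was lost without wild-type HT-DNA replicate 3 (-1.55) or Cgas-/- HT-DNA replicate 1 (-1.38). Cxcl3 moved in opposite directions, from 34, 52 and 28 counts to 8, 9 and 5 in wild-type cells and from 15, 20 and 41 counts to 71, 57 and 69 in Cgas-/- cells, and it was 1 of the 2 genes that HT-DNA raised there.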

How the results depend on the processing

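Without a minimum fold, HT-DNA against vehicle gave 3112 genes higher and 3376 lower, the difference between genotypes 2271 and 2377, and HT-DNA against tau 2429 and 2339. Without a scaling factor, an alternative chosen after seeing the data, the genes lower were 760 for HT-DNA against vehicle, 602 for the difference between genotypes and 369 for HT-DNA against tau. DESeq2, RLE scaling, no filter and only the compared groups each gave counts within 1.5 times those reported for these 3 comparisons. Leaving out 1 library at a time gave 675 to 765 genes higher and 344 to 431 lower, 486 to 606 and 254 to 354 for the difference between genotypes, and 178 to 229 and 210 to 264 for HT-DNA against tau. Whether the replicate numbers pair the libraries is not given in the sources used here. The deviations of same-numbered vehicle and HT-DNA libraries from their group means had correlations of -0.04, -0.05 and 0.02. With 3 libraries per group these values cannot settle whether libraries shared a culture. With the replicate number as a block the counts were 721 and 382, 550 and 292, and 202 and 239.

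Genes with small differences changed sign without a scaling factor, Cd74 (-0.022), Cdk1 (-0.17), Ifitm2 (-0.045), Ifnar1 (-0.036), Irf9 (-0.13), Mbp (-0.16) and Sall1 (-0.0021), and Cdk1, which ranged from -0.064 to 0.12 with 1 library left out, also without vehicle replicate 2 or HT-DNA replicate 3 (-0.064 and -0.041). None of them was called. Mki67, Plk1, Slc19a1, Tmem119 and Vsir were called lower without a scaling factor (-1.2 to -1.04). The list medians that changed sign without a scaling factor were those of interferons and receptors (-0.04), MHC class II (-0.16), disease-associated microglia (-0.06), glycolysis (-0.05), oxidative phosphorylation (-0.17), astrocytes (-0.01) and other leukocytes (-0.12). The cause of these changes was not tested. Depth limits the genes near the floor: 16 risen genes had 3 counts or fewer in every vehicle library, 29 fallen genes had 3 or fewer in every HT-DNA library, and in those the fitted fold is uncertain.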

Other observations

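The genes below were chosen after their values were seen. Ccnd1 had 145 ± 18.6 CPM with vehicle and 434 ± 6.59 CPM with HT-DNA (SD, n = 3 each), a log2 fold change of 1.58 ± 0.06 (SE), and Ccnd2 had 2.26 ± 0.356 and 15.7 ± 1.82 CPM (2.80 ± 0.15), while Ccnd3 was short of the fold threshold (0.79 ± 0.10). These cyclins act with CDK4 and CDK6 before DNA replication. The ligand Vegfa rose by 1.16 ± 0.09 (0.95 without a scaling factor), and its family's receptors Flt1 by 1.57 ± 0.07, Kdr by 2.25 ± 0.09 and Flt4 by 4.03 ± 0.36. Kdr had 22.8 ± 4.15 CPM with vehicle and 109 ± 4.37 CPM with HT-DNA. Hilpda, a lipid droplet protein like Plin2, rose by 1.88 ± 0.06, and the secreted proteins Thbs1 and Fgl2 rose by 2.58 ± 0.11 and 3.57 ± 0.13.

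Membrane proteins of the Ms4a family, which lie next to each other on chromosome 19, rose as well, with log2 fold changes of 3.77 ± 0.20 for Ms4a4c, 1.70 ± 0.27 for Ms4a4a, 1.38 ± 0.06 for Ms4a6c and 1.26 ± 0.07 for Ms4a6b. On the other side, some genes of ribosome and small RNA production fell. Polr1b, a subunit of RNA polymerase I, had 15.8 ± 2.93 CPM with vehicle and 7.36 ± 0.775 CPM with HT-DNA (-1.10 ± 0.13), and stood at -0.99 without vehicle replicate 2. Polr3g, a subunit of RNA polymerase III (-1.71 ± 0.18), Dkc1, which modifies ribosomal RNA (-1.11 ± 0.11), and Grwd1 (-1.11 ± 0.12) fell, whereas Polr1a (-0.71 ± 0.07) and Nop56 (-0.72 ± 0.07) were lower but short of the fold threshold. The clock gene Per3 fell by a log2 fold change of -1.38 ± 0.15.

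In the deposited name column 27 gene symbols had been turned into dates, so genes were matched by Ensembl identifier.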
